A study of Mus musculus with 24 samples.

Results

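Expression in the livers of female mice lacking the forkhead factors Foxa1 and Foxa2 was compared with that of wild-type females after both had received a liver carcinogen and a tumour promoter. The arrays were chosen by their titles, those of female double knockouts labelled treated (dKO, 4 arrays) and those of female wild types labelled treated (4 arrays), which are 8 of the 24 arrays of the series. Treated mice had been injected with diethylnitrosamine (DEN) at 20 mg per kg when 14 to 15 days old, and from 2 weeks later received TCPOBOP at 3 mg per kg, 8 times at intervals of 2 weeks. The other 16 arrays came from treated males and untreated females of both genotypes, 4 per group. All 24 samples carry the tissue label liver tumor, untreated ones included, and the extraction protocol names liver samples and sorted cells without saying which was used for which array. Which part of either Foxa gene was deleted, the Cre driver, the strain and the age at sampling are unknown from the sources used here. Nothing in the labels says that replicates were separate animals, and every p-value therefore reflects only how far these arrays spread, which may be technical.

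Foxa1 and Foxa2 are forkhead transcription factors that bind their sites in compacted chromatin and help to open enhancers of hepatocyte genes. DEN becomes a DNA-damaging agent once the cytochrome P450 enzymes of pericentral hepatocytes have activated it. TCPOBOP is an agonist of the nuclear receptor CAR (gene Nr1i3), which switches on drug-metabolising enzymes and drives hepatocytes to divide, and it promotes tumours from DEN-initiated cells. By its title the series is about sexual dimorphism in liver cancer, and the comparison asks what the absence of both factors changed in female livers put through that protocol.

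Levels are log2 processed signals minus the 75th percentile of the same array, so a level of 0 is the array's own 75th percentile. Differences are the dKO mean minus the wild-type mean on that log2 scale, with the standard error of a limma fit over 6 group means and all 24 arrays. Genes were tested where a probe was well above background on at least 4 of the 24 arrays, so a gene bright in 1 group alone could pass, and listed genes that are not counted as tested had no such probe. A gene was called when its p, adjusted over the 19149 genes tested by the Benjamini-Hochberg method, was under 0.05. The 75th percentile was 522.3 to 711.3 on the wild-type arrays and 686.5 to 959.9 on the dKO arrays. Between 57.4% and 62.1% of spots were well above background on the wild-type arrays and 65.0% to 68.4% on the dKO arrays. The standard errors draw on the spread within all 6 groups, so they rest on all 24 arrays.

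Several features of the arrays bear on every value. The dKO arrays differed more among themselves than the wild types did. Of 12881 genes well above background on all 8 arrays, 1020 spanned over 2 log2 units among the dKO arrays and 272 among the wild types, and the median span was 0.595 and 0.392. In those 1020 genes dKO array 2 was the highest in 424 and the lowest in 548, and dKO array 3 the highest in 468 and the lowest in 380. Correlations across genes, which are not independent replicates, were 0.976 to 0.986 between wild-type arrays, 0.933 to 0.985 between dKO arrays and 0.911 to 0.974 between the genotypes.

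In treated females of both genotypes replicate 4 lay between the others. Where the other 3 dKO arrays spanned over 2 log2 units (1497 genes), dKO array 4 was inside their range for 98.8% of genes, and its SD around the log2 of their mean signal was 0.461. For dKO arrays 1, 2 and 3 the shares inside were 85.8%, 28.4% and 35.7%, and the SD 1.09 to 1.96. Wild-type array 4 was inside the range of the other wild types for 98.8% of 337 such genes (55.8% to 70.9% for the others), and replicate 4 of the other 4 groups for 85.7% to 97.7%. The 85.7% was that of treated male dKO, where replicate 1 was inside more often (90.8%) and replicates 2 and 3 less often (80.2% and 62.1%). The labels do not say whether replicate 4 was a separate animal, and the cause was not tested. The counts of genes called, the medians and counts of the gene lists and the calls that were lost are therefore given also without replicate 4 of every group, a setting added after the values were seen. All 4 dKO arrays lay at position 4 of their slides and the wild types at positions 1 and 2, so position and genotype can hardly be told apart here.

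**Figure D1:**
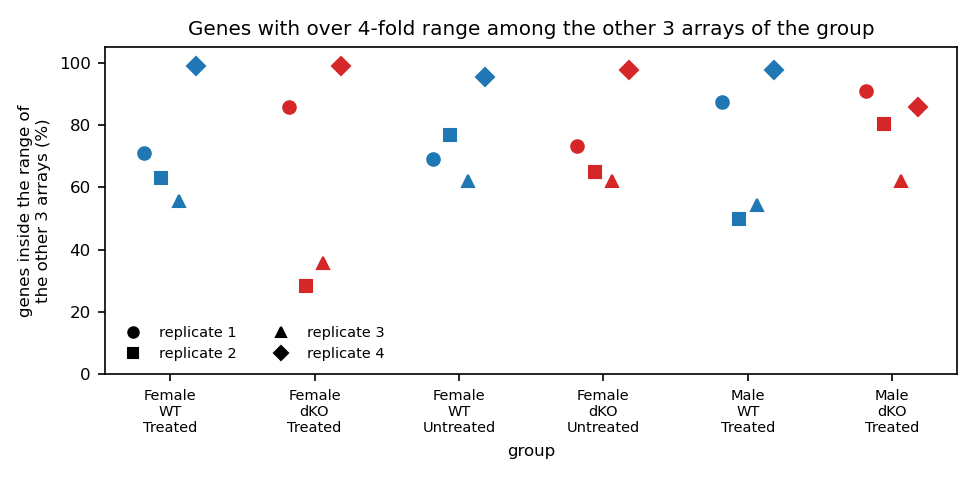
For each of the 6 groups (x axis) and each replicate (symbols, blue wild type, red dKO), the share in percent of genes whose value lay inside the range of the other 3 arrays (y axis), among genes that spanned over 4-fold on those 3 arrays. Replicate 4 was inside for 85.7% to 98.8% of genes, and in treated dKO females replicates 2 and 3 were inside for 28.4% and 35.7%.

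The targeted genes were low on all 4 arrays labelled dKO. Foxa2 (probe on chromosome 2, 147868698 to 147868757 of mm9) was at 4.09, 4.09, 3.88 and 3.98 on the wild-type arrays and -5.2, -7.32, -5.48 and -6.24 on dKO arrays 1 to 4, a difference of -10.07 ± 0.77 (adjusted p = 5.41e-08), with the dKO signal well above background on 2 of 4 arrays. Foxa1 (chromosome 12, 58641996 to 58642055) was at -2.99, -3.36, -3.18 and -3.07 in wild types, was not well above background on any dKO array (measured mean -8.14) and was at least 7.52-fold lower (adjusted p = 5.23e-10). Where a group had no array above background, the fold is such a bound, set against the lowest signal that passed as well above background. An adjusted p beside a bound is limma's for the measured difference and does not test the bound. The third family member, Foxa3 (chromosome 7, 19599053 to 19599112), was at 0.4, 0.6, 1.43 and 0.84 on the wild-type arrays and 1.42, 0.58, 2.2 and 1.42 on dKO arrays 1 to 4. Its groups overlapped and the difference of 0.59 ± 0.27 was not called (adjusted p = 0.109), but without dKO array 2 it was higher in dKO (0.87, adjusted p = 0.0198). With all arrays 2 of the 3 forkhead genes fell and none was called higher. The median of the 3 was -4.99, or -2.91 with Foxa1 at its bound. Xist, expressed from the inactive X chromosome of female cells, was at 5.27, 5.31, 5.23 and 5.1 on the wild-type arrays. It was at 4.77, 4.57, 4.88 and 4.66 on dKO arrays 1 to 4, each below every wild-type array. The difference was not called (-0.51 ± 0.63, adjusted p = 0.583), but its standard error draws on the spread within all groups, males included. The authors' deposited table lists Xist at a signed fold change of -1.198 and a false discovery rate of 2.97%.

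Differences between the genotypes were spread over much of the liver transcriptome. Of 19149 genes 5731 were called (29.9%), 2579 higher in dKO (13.5%) and 3152 lower (16.5%), and by 2-fold or more 1420 were higher (7.42%) and 715 lower (3.73%). The median difference over all genes was -0.07. Under another background correction, normexp, the split moved to 1728 higher and 5346 lower and the median of all genes to -0.23. The 2 groups did not overlap for 4135 genes (21.6%).

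The number called depended on which dKO arrays were present. Without dKO array 2 it was 3948 (20.6%), without dKO array 3 7256 (37.9%) and without both 4627 (24.2%). In all 4 of these fits 3421 genes were called (17.9%), 1614 higher (8.43%) and 1807 lower (9.44%), which are referred to as called with and without arrays 2 and 3. A fit of the 8 arrays alone called 2091 (10.9%), 1208 higher and 883 lower. Of the lists below, it called lower 1 of 28 amino acid catabolism, 1 of 48 plasma protein and 4 of 24 pericentral genes. It called higher 11 of 43 mitosis, 16 of 23 bile duct and 19 of 37 matrix genes. Cps1 and Hpd, given below as called, were not called in it (adjusted p = 0.253 and 0.271). Without replicate 4 of every group 1531 were called (8.0%), and 869 (4.54%) without dKO array 2 and 3559 (18.6%) without dKO array 3 in addition. In each list below, the numbers called beside a median are to be read against the shares of all genes, 13.5% higher and 16.5% lower with all arrays, 9.89% and 10.7% without dKO array 2, 15.7% and 22.2% without dKO array 3, and 4.55% and 3.44% without replicate 4. The calls that held in all 4 fits and without replicate 4 numbered 1491 (7.79%), 858 higher (4.48%) and 633 lower (3.31%). With slide position as a term of the fit 22 genes were called, and the median standard error was 0.443 instead of 0.197.

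**Figure D2:**
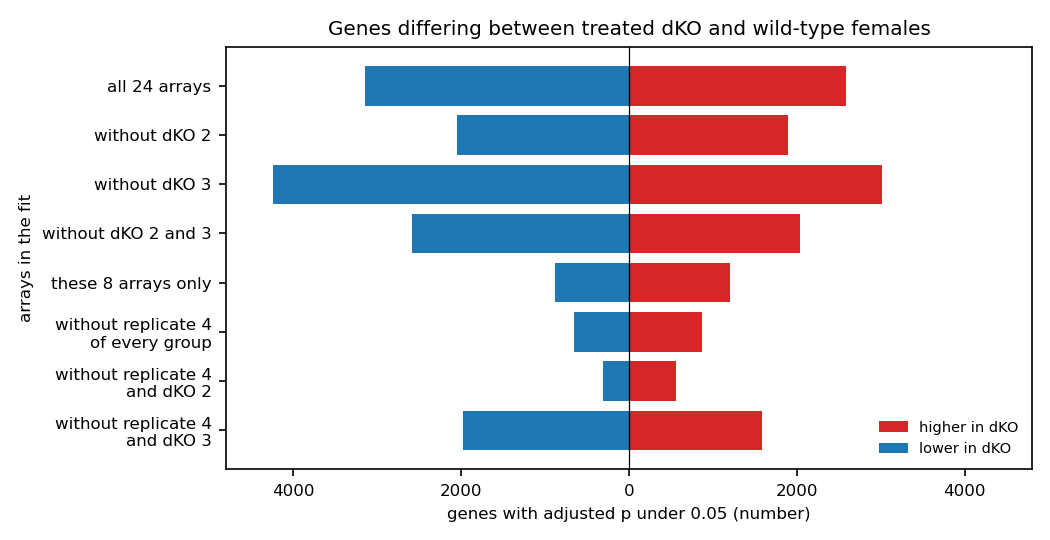
Number of genes with adjusted p under 0.05 (x axis, higher in dKO to the right in red, lower to the left in blue) for each set of arrays in the fit (y axis). The number is 5731 with all arrays, 3948 without dKO array 2, 7256 without dKO array 3 and 1531 without replicate 4 of every group.

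The genes with the largest rises included those of lipid droplet, detoxification and fetal liver proteins. These 12 highest genes were chosen among genes well above background on all 8 arrays and called with and without dKO arrays 2 and 3. Groups that do not overlap were a further condition of the choice. Cidea, a protein of lipid droplets in brown fat and fatty liver, was at -4.81, -4.62, -2.14 and -3.68 on the wild-type arrays and 1.86, 4.1, 2.0 and 3.06 on dKO arrays 1 to 4. Every dKO array was above every wild-type array, and the difference was 6.56 ± 0.52 (adjusted p = 6.63e-08). Mgst2, a microsomal glutathione transferase, was at -1.89, -2.43, -0.86 and -1.64 on the wild-type arrays and 2.76, 5.33, 2.18 and 4.31 on dKO arrays 1 to 4, a difference of 5.35 ± 0.53 (adjusted p = 1.03e-06). Scd2, a fatty acid desaturase abundant in fetal liver, was at 0.4, 0.37, 1.31 and 0.69 on the wild-type arrays and 4.56, 6.02, 5.69 and 5.6 on dKO arrays 1 to 4. Its dKO arrays lay within 1.46 of each other, and it rose by 4.77 ± 0.35 (adjusted p = 3.41e-08).

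Other members of this group were graded among the dKO arrays. Cbr3, a carbonyl reductase, was at 0.41, 0.97, 1.62 and 0.95 on the wild-type arrays and 4.23, 8.13, 3.43 and 7.22 on dKO arrays 1 to 4, and Fgf21, a hormone that the liver secretes under metabolic stress, at 0.75, 4.83, 0.38 and 3.71 on dKO arrays 1 to 4 against -1.98, -1.92, -2.76 and -2.22 in wild types. In both genes dKO array 2 was the highest and dKO array 3 the lowest of the dKO arrays. Their differences were 4.77 ± 0.67 (adjusted p = 3.94e-05) and 4.64 ± 0.85 (adjusted p = 0.000534), and those of Fgf21 were 3.83 without dKO array 2, 5.32 without dKO array 3 and 4.21 without replicate 4 of every group. Igf2, the fetal insulin-like growth factor, ran in another order, at -1.06, -2.91, -1.56 and -1.47 on the wild-type arrays and 4.63, 1.11, 1.7 and 3.27 on dKO arrays 1 to 4, so that dKO array 1 was the highest and dKO array 2 the lowest. It rose by 4.42 ± 0.71 (adjusted p = 0.000151), and by 4.95 without dKO array 2, 4.75 without dKO array 3 and 4.32 without replicate 4 of every group.

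Spink1, a secreted trypsin inhibitor raised in liver tumours, rose by 5.03 ± 0.79, and Krt7, a keratin of bile ducts, by 4.41 ± 0.45. The fatty acid elongase Elovl7 (4.36 ± 0.76), the unconventional myosin Myo15b (4.67 ± 0.64), the tubulin Tubb2b (4.2 ± 0.91) and the lysosomal GTPase Rragd (4.19 ± 0.71) made up the rest of the 12, with 0.00198 as the largest adjusted p of these 6 (Tubb2b). Without replicate 4 of every group the adjusted p of Tubb2b was 0.0731, and the other 11 remained called. Among genes not above background on any wild-type array, the largest bounds were those of Tinag and Dnase1, genes of kidney tubules (at least 36.6-fold and 12.3-fold higher), Wnt10a, a Wnt ligand (at least 19.3-fold), Chrdl2, a secreted binder of bone morphogenetic proteins (at least 16.9-fold), Tmem145 (at least 18.8-fold) and Fam81a (at least 12.1-fold).

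**Figure D3:**
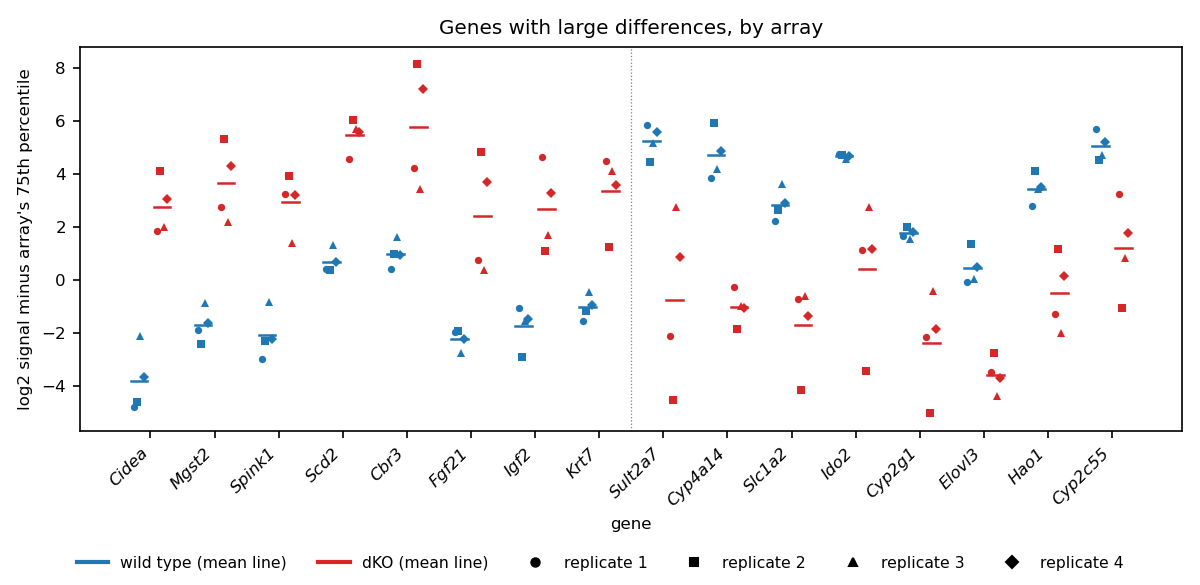
Log2 signal minus the array's 75th percentile (y axis) for 8 of the genes that rose and 8 of those that fell (x axis, either side of the dotted line), with a symbol for each replicate and a line for the group mean (blue wild type, red dKO). The groups do not overlap for any of the 16 genes, which was a condition of their choice. Scd2 and Cyp4a14 spread less among the dKO arrays than Sult2a7 and Ido2.

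Genes with the largest falls coded mostly for enzymes of detoxification, fatty acid and amino acid metabolism. Sult2a7, a sulfotransferase of steroids and bile acids, was at 5.86, 4.45, 5.16 and 5.57 on the wild-type arrays and -2.11, -4.52, 2.73 and 0.84 on dKO arrays 1 to 4. The difference was -6.02 ± 0.97 (adjusted p = 0.000168), and it was -4.77 without dKO array 2, -7.19 without dKO array 3 and -6.46 without replicate 4 of every group. Its relative Sult2a8 was at 5.8, 5.37, 5.22 and 5.4 on the wild-type arrays and 0.99, 0.24, 3.31 and 1.93 on dKO arrays 1 to 4 and fell by 3.83 ± 0.43 (adjusted p = 4.18e-06). No dKO array reached the wild-type range for either gene, dKO array 2 was the lowest and dKO array 3 the highest of the 4. Members of this family, like those of the Cyp and Ugt families below, have close relatives, and how far a probe also reads a relative was not tested.

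A forkhead motif was looked for in the 250 bases before the annotated start of these genes, using RefSeq promoters of GRCm38.p6, as the letters TGTTTAC or TATTTAC on either strand. Of all 32851 such promoters 5.76% held either motif (3.17% and 2.73%). Of the 12 highest genes 8 had a promoter in that table, 11 promoters in all, and 0 held a motif. Of the 12 lowest 7 had one, 9 promoters in all, and 1 held a motif, that of Sult2a8 (chr7:14438552-14438801, minus strand). It is shown because it is the only match among the 24 genes, with TATTTAC or its reverse complement in capitals, 206 bases before the start.
Sult2a8: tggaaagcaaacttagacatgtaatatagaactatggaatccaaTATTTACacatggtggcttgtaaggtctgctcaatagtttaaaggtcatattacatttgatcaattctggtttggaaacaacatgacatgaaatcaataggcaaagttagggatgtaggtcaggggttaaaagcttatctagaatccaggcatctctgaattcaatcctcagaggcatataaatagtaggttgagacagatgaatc
A match is a description of the letters and says nothing of binding, and no match says only that they are absent from this window.

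Ido2 and Cyp2c55, further enzymes among the 12 lowest, were also lowest on dKO array 2. Ido2, which breaks down tryptophan, was at 4.76, 4.71, 4.56 and 4.68 on the wild-type arrays and 1.14, -3.43, 2.75 and 1.15 on dKO arrays 1 to 4, and Cyp2c55, a P450 induced through CAR, at 5.71, 4.54, 4.73 and 5.22 on the wild-type arrays and 3.26, -1.08, 0.83 and 1.77 on dKO arrays 1 to 4. The wild-type arrays lay close together for Ido2, and no dKO array reached the wild-type range for either. Differences were -4.27 ± 0.74 for Ido2, -3.86 ± 0.62 for Cyp2c55, -4.56 ± 0.57 for the pericentral glutamate transporter Slc1a2, -4.12 ± 0.6 for Cyp2g1 and -3.67 ± 0.54 for the G protein subunit Gna14. Qdpr, which regenerates the cofactor of phenylalanine breakdown, was at 0.49, -0.57, 4.57 and 2.75 on the dKO arrays against 6.49, 5.03, 5.45 and 6.01 in wild types. It fell by 3.94 ± 0.97 (adjusted p = 0.00516, the largest of the 12), and was not called without replicate 4 of every group (adjusted p = 0.0628). Hsd17b6, a steroid dehydrogenase, had a difference of -3.76 ± 0.58.

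Other genes of this group were lowest on dKO array 3. Elovl3, an elongase that is male-biased in mouse liver, was at -0.074, 1.33, 0.018 and 0.47 on the wild-type arrays and -3.5, -2.75, -4.38 and -3.72 on dKO arrays 1 to 4. Hao1, the peroxisomal glycolate oxidase, was at 2.77, 4.11, 3.42 and 3.49 on the wild-type arrays and -1.3, 1.17, -2.01 and 0.13 on dKO arrays 1 to 4. For both, dKO array 3 was the lowest and dKO array 2 the highest dKO array, the reverse of Sult2a7. Differences were -4.02 ± 0.61 (adjusted p = 8.77e-05) and -3.95 ± 0.45 (adjusted p = 4.38e-06). Among genes not above background on any dKO array, the largest bounds beside that of Foxa1 were those of Duoxa1 (at least 13.7-fold lower), the maturation factor of a dual oxidase, Dlgap1 (at least 6.47-fold lower), Pde6c (at least 5.65-fold lower), Irx1 (at least 4.22-fold lower), a homeobox factor, and Igsf21 (at least 4.05-fold lower).

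PPARA targets among the Cyp4a and acyl-CoA genes were low on all 4 dKO arrays. Cyp4a14, a fatty acid omega-hydroxylase, was at 3.84, 5.9, 4.18 and 4.88 on the wild-type arrays and -0.28, -1.86, -0.98 and -1.05 on dKO arrays 1 to 4, a difference of -5.74 ± 0.57 (adjusted p = 9.94e-07). Acot1, an acyl-CoA thioesterase, was at 3.56, 3.07, 2.63 and 3.28 on the wild-type arrays and 0.041, 0.87, -0.76 and 0.23 on dKO arrays 1 to 4, a difference of -3.04 ± 0.28 (adjusted p = 3.86e-07). Cyp4a10, at 4.7, 5.36, 4.29 and 4.77 on the wild-type arrays and 2.11, 2.12, 2.77 and 2.06 on dKO arrays 1 to 4, changed by -2.51 ± 0.28 (adjusted p = 3.36e-06). None of the dKO arrays reached the wild-type range in these 3 genes, and without replicate 4 of every group the differences were -5.68, -3.03 and -2.45 (largest adjusted p 0.00205).

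In the whole list of fatty acid oxidation and PPARA targets, 15 of 35 tested fell, 1 rose (Pdk4, the kinase that restrains pyruvate dehydrogenase, 0.97 ± 0.33) and 19 were not called. The median was -0.45, and -0.32 (0 higher, 11 lower) without dKO array 2, -0.56 (2 higher, 23 lower) without dKO array 3 and -0.4 (0 higher, 5 lower) without replicate 4 of every group. Beside the Cyp4a and Acot genes the peroxisomal enzyme Ehhadh (-1.22 ± 0.16) fell, whereas the mitochondrial carnitine transferase Cpt1a (0.079 ± 0.23) and the fatty acid binding protein Fabp1 (-0.045 ± 0.18) were not called. Ppara itself was at 3.75, 3.81, 3.3 and 3.45 on the wild-type arrays and 2.95, 2.42, 3.4 and 2.73 on dKO arrays 1 to 4 and fell by 0.7 ± 0.19 (adjusted p = 0.00798). Pdk4 was not called without dKO array 2, nor Pdk4 and Ppara without replicate 4 of every group.

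Genes of mitosis were higher in dKO, steeply so on dKO array 2 and hardly on dKO array 3. Of 45 listed 43 were tested, 40 rose and none fell, where 13.5% of all genes tested rose, and 3 were not called (Bub1, Ect2 and Ttk). The list's mean level was -0.24, -0.19, 0.42 and 0.006 on the wild-type arrays and 1.41, 3.16, 0.49 and 2.29 on dKO arrays 1 to 4, so that dKO array 3 lay next to the wild types. The median difference was 1.89, and 1.45 (33 higher, 0 lower) without dKO array 2, 2.31 (40 higher, 0 lower) without dKO array 3 and 1.77 (13 higher, 0 lower) without replicate 4 of every group, beside -0.07 over all genes. Of the 43, 33 were called with and without dKO arrays 2 and 3 (8.43% of all genes), and of these 13 without replicate 4 of every group as well (4.48%). The summed linear level was 8.9 to 13.7 on wild-type arrays and 13.8 to 81.2 on dKO arrays.

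Single members were graded likewise. Cdk1, the kinase that drives entry into mitosis, was at -4.44, -4.28, -3.77 and -4.22 on the wild-type arrays and -1.9, 0.0069, -3.43 and -0.98 on dKO arrays 1 to 4. Prc1, which bundles the microtubules of the dividing cell's midzone, was at -2.59, -2.41, -1.69 and -2.5 on the wild-type arrays and -0.19, 1.78, -1.4 and 0.77 on dKO arrays 1 to 4. Both were highest on dKO array 2, then on 4 and 1, and on dKO array 3 above each wild-type array by less. Differences were 2.6 ± 0.53 (adjusted p = 0.0012) and 2.54 ± 0.45 (adjusted p = 0.000409). For Cdk1 the value was 2.07 without dKO array 2, 3.22 without dKO array 3 and 2.39 (adjusted p = 0.0527) without replicate 4 of every group. Others among the largest were Pbk (2.99 ± 0.58, adjusted p = 0.0008, well above background on 1 of 4 wild-type arrays), a mitotic kinase, Ccnb1 (2.78 ± 0.62, adjusted p = 0.00254, well above background on 2 of 4 wild-type arrays), the mitotic cyclin, and Cep55 (at least 4.78-fold higher, adjusted p = 0.000117), a protein of the final cut between daughter cells. Ccnb1 was not called without replicate 4 of every group.

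Promoters of such genes often carry a cell cycle genes homology region, read by repressor complexes in resting cells. As the letters TTTGAA or the reverse complement TTCAAA, without regard to overlap with other motifs, it was in 16% of the 32851 promoters of 250 bases. Of the 43 mitosis genes 35 had a promoter in the table and 11 of them held the letters (31.4%), in 12 of 38 promoters (31.6%). A motif of 6 letters is common, and the match is a description only. The promoters of Cdk1 (chr10:69352913-69353162, minus strand), Prc1 (chr7:80294226-80294475, plus strand) and Cep55 (chr19:38054791-38055040, plus strand), 3 of the mitosis genes described above, are given from RefSeq, GRCm38.p6, with the letters in capitals. The match nearest the start lay 15, 30 and 33 bases before it. These 3 promoters are shown because they hold the letters. The promoter of Ccnb1 did not hold them, nor did another annotated promoter of Prc1 and of Cep55.
Cdk1: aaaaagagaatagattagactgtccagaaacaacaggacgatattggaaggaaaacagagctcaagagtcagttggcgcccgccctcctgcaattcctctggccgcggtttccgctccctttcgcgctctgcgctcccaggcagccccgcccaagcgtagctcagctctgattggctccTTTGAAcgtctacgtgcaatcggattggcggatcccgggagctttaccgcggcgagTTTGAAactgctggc
Prc1: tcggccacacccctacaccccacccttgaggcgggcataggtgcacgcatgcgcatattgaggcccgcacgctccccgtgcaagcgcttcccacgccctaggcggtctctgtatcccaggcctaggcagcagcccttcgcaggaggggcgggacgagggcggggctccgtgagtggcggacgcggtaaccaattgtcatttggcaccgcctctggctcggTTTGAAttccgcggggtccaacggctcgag
Cep55: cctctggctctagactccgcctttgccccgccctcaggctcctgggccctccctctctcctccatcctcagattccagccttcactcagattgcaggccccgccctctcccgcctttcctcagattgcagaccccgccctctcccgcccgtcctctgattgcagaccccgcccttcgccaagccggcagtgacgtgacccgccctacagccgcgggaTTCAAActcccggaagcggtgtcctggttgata

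DNA replication genes moved in the same direction with smaller differences. Of 40 tested 30 rose, 2 fell and 8 were not called, with a median of 0.93, and 0.67 (21 higher, 3 lower) without dKO array 2, 1.15 (30 higher, 2 lower) without dKO array 3 and 0.87 (14 higher, 2 lower) without replicate 4 of every group. Mcm6, a subunit of the replicative helicase, was at 0.77, -0.0078, 0.52 and 0.45 on the wild-type arrays and 2.89, 3.8, 1.57 and 3.05 on dKO arrays 1 to 4 and rose by 2.4 ± 0.4 (adjusted p = 0.000214). All dKO arrays were above the wild types. Also Rrm2 (2.4 ± 0.5, adjusted p = 0.00149), which makes deoxynucleotides, Uhrf1 (2.35 ± 0.42, adjusted p = 0.000409), which maintains DNA methylation, and Ccne1 (2.06 ± 0.36, adjusted p = 0.000363), cyclin E, rose. The 2 that fell were Mcm10 (-1.78 ± 0.36, adjusted p = 0.0012) and Tk1 (-1.16 ± 0.21, adjusted p = 0.000416), and both remained called without replicate 4 of every group. Rrm2 was not called without replicate 4 of every group.

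In the list of genes that control entry into the cell cycle, with the immediate early genes, 11 of 20 tested rose and 1 fell, with a median of 0.58, and 0.52 (8 higher, 1 lower) without dKO array 2, 0.79 (12 higher, 1 lower) without dKO array 3 and 0.64 (2 higher, 1 lower) without replicate 4 of every group. Myc was at -0.13, -0.82, -0.33 and -0.55 on the wild-type arrays and 0.51, 1.11, 0.19 and 0.53 on dKO arrays 1 to 4 and rose by 1.04 ± 0.25 (adjusted p = 0.0044), and Ccnd1, cyclin D1, at 2.41, 2.07, 1.78 and 2.3 on the wild-type arrays and 3.66, 2.78, 3.21 and 3.25 on dKO arrays 1 to 4, rose by 1.08 ± 0.32 (adjusted p = 0.0152). The dKO arrays lay above the wild types for both, and neither was called without replicate 4 of every group (adjusted p = 0.0808 and 0.124). Egr1, an immediate early factor (2.07 ± 0.37), and the cell cycle inhibitor Cdkn2b (2.17 ± 0.37) rose as well, both also without replicate 4. Cdkn2a, another inhibitor, was well above background on no wild-type array and on 3 of 4 dKO arrays, with measured means of -7.02 and -5.73, and its direction turned under normexp background. Cdkn1c, the imprinted inhibitor, fell (-1.0 ± 0.18).

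**Figure D4:**
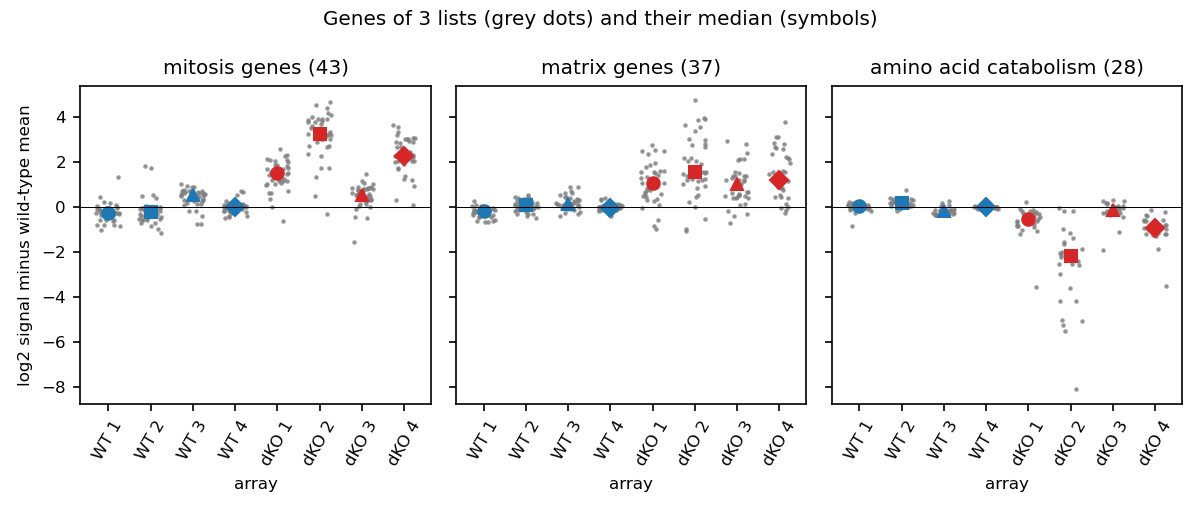
For each gene of 3 lists (grey dots, 43 mitosis, 37 matrix and 28 amino acid catabolism genes), its log2 signal minus the mean of the 4 wild-type arrays (y axis) on each of the 8 arrays (x axis), with the list's median as a symbol (blue wild type, red dKO). Mitosis and amino acid genes stand furthest from wild type on dKO array 2 and nearest on dKO array 3, and matrix genes are above wild type on all 4 dKO arrays.

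Most markers of bile duct cells were higher in dKO. Of 23 bile duct markers tested 18 rose and none fell, with a median of 2.21, and 2.53 (18 higher, 0 lower) without dKO array 2, 2.03 (17 higher, 0 lower) without dKO array 3 and 2.29 (13 higher, 0 lower) without replicate 4 of every group. With genes below background at their bound the median was 1.80. Of these, 17 were called with and without dKO arrays 2 and 3, and 13 also without replicate 4 of every group. Krt7 was at -1.56, -1.18, -0.47 and -0.96 on the wild-type arrays and 4.5, 1.26, 4.11 and 3.6 on dKO arrays 1 to 4, and Spp1, osteopontin, at 3.4, 3.06, 4.25 and 3.58 on the wild-type arrays and 6.92, 7.86, 5.71 and 7.34 on dKO arrays 1 to 4. The groups stood apart for both, dKO array 2 being the lowest dKO array for Krt7 and the highest for Spp1. Epcam, an adhesion protein of biliary cells, was at -1.12, -3.27, -0.98 and -1.8 on dKO arrays 1 to 4 against -4.09, -4.15, -2.04 and -3.21, so that dKO array 2 lay in the wild-type range. Krt19, a defining keratin of ducts, was not called (1.11 ± 0.48, adjusted p = 0.09), and Sox9, the duct transcription factor, rose by 1.8 ± 0.37 (adjusted p = 0.00135).

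Other duct markers that rose were Ggt1 (4.14 ± 0.56, well above background on 2 of 4 wild-type arrays), Cd24a (3.69 ± 0.42), Wfdc2 (3.52 ± 0.49), Bicc1 (3.27 ± 0.34), Cldn7 (3.25 ± 0.3) and Ddr1 (2.57 ± 0.26) (largest adjusted p 3.43e-05). The list's summed linear level was 15.4 to 31.5 on wild-type arrays and 104.9 to 309.6 on dKO arrays. A sum of linear levels weighs bright genes most, and this one holds Spp1, given above. In bulk RNA a larger number of cells of a type and more RNA per cell cannot be told apart, and this holds for every marker list here. Of the 10 keratins tested 3 rose and 1 fell, with a median of 1.05, and 0.85 (3 higher, 1 lower) without dKO array 2, 1.03 (5 higher, 1 lower) without dKO array 3 and 0.81 (3 higher, 1 lower) without replicate 4 of every group. The gut keratin Krt20 was at -4.7, -7.26, -4.53 and -5.11 on the wild-type arrays and 1.57, 4.09, 0.63 and 3.0 on dKO arrays 1 to 4 (well above background on 2 of 4 wild-type arrays) and rose by 7.72 ± 0.85 (adjusted p = 3.41e-06). Krt23 rose by 3.42 ± 0.34, its dKO arrays lying between 2.05 and 2.49, and Krt4 was at least 3.16-fold lower. The hepatocyte keratins Krt8 (0.3 ± 0.2) and Krt18 (0.32 ± 0.13) were not called. Krt18 (0.37, adjusted p = 0.044) was called without dKO array 3.

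A few genes known from kidney tubules rose. Of 13 kidney tubule markers tested (21 listed) 5 rose and 1 fell, with a median of 0.5, and 0.5 (6 higher, 0 lower) without dKO array 2, 0.44 (5 higher, 2 lower) without dKO array 3 and 0.75 (4 higher, 0 lower) without replicate 4 of every group. The median turned to -0.53 with normexp background and -0.36 with no filter. The cadherin Cdh16 was at -4.78, -5.55, -4.38 and -3.98 on the wild-type arrays and 1.86, -2.07, 1.52 and 0.91 on dKO arrays 1 to 4 and rose by 5.23 ± 0.64 (adjusted p = 1.00e-05, above background on 3 of 4 wild-type arrays), and Umod (at least 2.84-fold higher), Lrp2 (2.35 ± 0.73, well above background on 2 of 4 wild-type arrays) and Tinag and Dnase1, given above, rose with it. The transporters Slc22a6 (-0.41 ± 0.35) and Slc22a12 (-0.58 ± 0.44) and the factor Pax2 (-0.47 ± 0.21), which mark kidney tubules, were not called. Gut markers counted 3 higher and 1 lower of 9 (18 listed), with a median of 0.21, and 0.27 (3 higher, 1 lower) without dKO array 2, 0.21 (4 higher, 2 lower) without dKO array 3 and -0.24 (2 higher, 1 lower) without replicate 4 of every group. With normexp background the gut median was -0.24. Pax2 (-0.72, adjusted p = 0.00434) was called without dKO array 3. Lrp2 was not called without replicate 4 of every group.

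Matrix genes, made mainly by stellate cells and fibroblasts, were higher in dKO with and without dKO array 2, dKO array 3 or replicate 4. Of 37 tested 29 rose, none fell, and the 2 groups did not overlap for 27, against 21.6% of all genes. The median was 1.21, and 1.1 (27 higher, 0 lower) without dKO array 2, 1.28 (31 higher, 0 lower) without dKO array 3 and 1.17 (16 higher, 0 lower) without replicate 4 of every group, and 24 were called with and without dKO arrays 2 and 3, 16 of them also without replicate 4. Col1a1, the main chain of type I collagen, was at -0.047, 0.4, 0.84 and 0.36 on the wild-type arrays and 2.9, 5.13, 2.77 and 4.17 on dKO arrays 1 to 4 and rose by 3.35 ± 0.43 (adjusted p = 1.67e-05). Lum, a collagen-binding proteoglycan, was at 1.39, 1.96, 2.12 and 1.85 on the wild-type arrays and 4.18, 3.86, 3.98 and 3.95 on dKO arrays 1 to 4 and rose by 2.16 ± 0.21 (adjusted p = 7.88e-07). Its dKO arrays lay within 0.32, far above the wild types, and those of the gelatinase Mmp2 within 0.43 (2.78 ± 0.32, adjusted p = 4.71e-06). Loxl1, which cross-links elastin, rose by 2.73 ± 0.29 (adjusted p = 1.90e-06). Acta2, the actin of activated stellate cells, and the stellate markers Lrat, Reln and Rgs5 were not called (0.43 ± 0.2, -0.17 ± 0.31, -0.034 ± 0.28 and -0.16 ± 0.16). The summed linear level of the list was 124 to 144 on wild-type arrays and 212 to 324 on dKO arrays. Acta2 (0.63, adjusted p = 0.0101) was called without dKO array 3.

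Some growth factors of the TGF-beta and PDGF families rose. Tgfb2 was at -3.53, -3.35, -2.35 and -3.46 on the wild-type arrays and -0.68, -0.17, -1.13 and -0.51 on dKO arrays 1 to 4 (2.55 ± 0.35, adjusted p = 3.45e-05) and Tgfb3 at -2.18, -1.51, -1.32 and -1.89 on the wild-type arrays and 0.19, 0.65, 0.39 and 0.28 on dKO arrays 1 to 4 (2.1 ± 0.24, adjusted p = 4.38e-06), with no overlap of the groups, whereas Tgfb1 was not called (0.6 ± 0.35, adjusted p = 0.206). Pdgfb (2.45 ± 0.35), the activin subunit Inhbb (2.18 ± 0.47) and Vegfc (1.15 ± 0.15) rose, and Fgf1 (-1.61 ± 0.33), Bmp2 (-1.47 ± 0.24) and Vegfa (-0.69 ± 0.12) fell. Over the list of growth factors and receptors 10 of 30 rose and 7 fell, with a median of 0.23, and 0.3 (9 higher, 7 lower) without dKO array 2, 0.2 (12 higher, 6 lower) without dKO array 3 and 0.24 (6 higher, 3 lower) without replicate 4 of every group. It was -0.08 with normexp background. Hgf (0.28 ± 0.19) and its receptor Met (-0.011 ± 0.14) were not called. Tgfb1 (0.96, adjusted p = 0.0243) was called without dKO array 3. Inhbb was not called without replicate 4 of every group.

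Wnt ligands, inhibitors and receptors moved both ways, 4 of 26 tested higher (33 listed) and 6 lower, with a median of -0.019, and 0.15 (5 higher, 4 lower) without dKO array 2, -0.22 (4 higher, 5 lower) without dKO array 3 and -0.087 (3 higher, 1 lower) without replicate 4 of every group. Wnt10a was not above background on any wild-type array and was at 0.17, -2.99, -0.22 and -0.67 on the dKO arrays. The inhibitor Dkk2 was likewise not above background in wild types and at -2.37, -3.4, -2.11 and -2.71 in dKO, at least 5.85-fold higher, and Dkk3 rose by 2.42 ± 0.27 (adjusted p = 3.46e-06). The receptor Fzd8 (-1.66 ± 0.28), the endothelial ligands Wnt2 (-1.21 ± 0.33) and Wnt9b (-0.97 ± 0.33), and the inhibitor Wif1 (-1.89 ± 0.61, well above background on 3 of 4 dKO arrays) fell. Wnt9b and Wif1 were not called without dKO array 2, nor Wif1 without dKO array 3, nor Wnt2, Wnt9b and Wif1 without replicate 4 of every group.

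Genes of pericentral hepatocytes, which depend on Wnt signals, were lower. Of 24 tested none rose and 14 fell, where 16.5% of all genes fell, and the median was -1.15, and -0.5 (0 higher, 10 lower) without dKO array 2, -1.5 (0 higher, 20 lower) without dKO array 3 and -1.24 (0 higher, 5 lower) without replicate 4 of every group. Glul, glutamine synthetase, was at 6.16, 6.46, 7.04 and 6.42 on the wild-type arrays and 5.46, 4.27, 5.38 and 4.91 on dKO arrays 1 to 4 and fell by 1.51 ± 0.22 (adjusted p = 4.69e-05). All dKO arrays were below the wild types. Cyp2e1, the P450 that activates DEN, was at 7.08, 7.59, 7.31 and 7.32 on the wild-type arrays and 6.82, 2.96, 7.29 and 6.35 on dKO arrays 1 to 4, so that dKO array 3 lay within the wild-type range and dKO array 2 far below it (-1.47 ± 0.55, adjusted p = 0.049). Without dKO array 2 the difference of Cyp2e1 was -0.51 (adjusted p = 0.037) and without replicate 4 of every group -1.64 (adjusted p = 0.184). Sp5, a Wnt target, fell by 2.74 ± 0.52 (adjusted p = 0.000645), and the Wnt targets Axin2 (-1.07 ± 0.47), Notum (-1.0 ± 0.41) and Lgr5 (0.25 ± 0.25) were not called. Axin2 (-1.4, adjusted p = 0.0271) and Notum (-1.37, adjusted p = 0.01) were called without dKO array 3.

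Targets of CAR, the receptor that TCPOBOP activates, were lower in dKO. Among 27 tested none rose and 16 fell, with a median of -0.82, and -0.54 (0 higher, 15 lower) without dKO array 2, -1.01 (0 higher, 19 lower) without dKO array 3 and -0.86 (0 higher, 7 lower) without replicate 4 of every group. Cyp2b10, the classical target, was at 6.05, 5.37, 5.24 and 5.77 on the wild-type arrays and 5.42, 1.88, 4.69 and 4.48 on dKO arrays 1 to 4, a difference of -1.49 ± 0.45 (adjusted p = 0.0167) that was -0.75 without dKO array 2, -1.68 without dKO array 3 and -1.56 (adjusted p = 0.125) without replicate 4 of every group. dKO arrays 1, 3 and 4 lay near the wild types and dKO array 2 far below. Aldh1a7, an aldehyde dehydrogenase, was at 7.51, 7.01, 6.97 and 7.31 on the wild-type arrays and 5.76, 5.88, 5.61 and 5.78 on dKO arrays 1 to 4 and was low on every dKO array (-1.45 ± 0.17, adjusted p = 4.81e-06). Akr1b7 (-3.19 ± 0.56), Ces2a (-2.12 ± 0.4) and Cyp1a2 (-2.16 ± 0.42) fell also without replicate 4. The receptor's own gene Nr1i3 was at 2.94, 2.89, 2.68 and 2.93 on the wild-type arrays and 2.69, -0.81, 3.42 and 2.25 on dKO arrays 1 to 4 and was not called (-0.97 ± 0.53, adjusted p = 0.174), with a difference of -0.075 without dKO array 2 (adjusted p = 0.844) and -1.49 without dKO array 3 (adjusted p = 0.0233, called).

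Hepatocyte genes of amino acid breakdown and the urea cycle were graded by array. For amino acid catabolism 17 of 28 tested fell and none rose, with a median of -0.99, and -0.54 (0 higher, 14 lower) without dKO array 2, -1.27 (0 higher, 24 lower) without dKO array 3 and -0.99 (0 higher, 2 lower) without replicate 4 of every group. The list's mean level was -0.013, 0.18, -0.16 and -0.012 on the wild-type arrays and -0.63, -2.69, -0.18 and -0.98 on dKO arrays 1 to 4, with dKO array 3 beside the wild types and dKO array 2 lowest. Hpd, an enzyme of tyrosine breakdown, was at 7.17, 7.27, 6.76 and 7.05 on the wild-type arrays and 6.43, 1.55, 6.92 and 5.82 on dKO arrays 1 to 4 (-1.88 ± 0.69, adjusted p = 0.0439), and was not called without replicate 4 of every group (adjusted p = 0.173). Of the 28, 14 were called with and without dKO arrays 2 and 3 (9.44% of all genes), and of these 2 also without replicate 4 (3.31%), which were Ido2 and Cth.

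Of 20 periportal and urea cycle genes 8 fell and none rose, beside 16.5% lower of all genes, with a median of -0.64, and -0.42 (0 higher, 4 lower) without dKO array 2, -0.86 (0 higher, 12 lower) without dKO array 3 and -0.62 (0 higher, 1 lower) without replicate 4 of every group. Cps1, the first enzyme of the urea cycle, was at 6.3, 6.53, 6.65 and 6.56 on the wild-type arrays and 5.57, 0.97, 6.46 and 5.25 on dKO arrays 1 to 4 and fell by 1.95 ± 0.69 (adjusted p = 0.039). dKO array 3 lay within the wild-type range and dKO array 2 far below it. Among 48 plasma proteins 19 fell and 1 rose, with a median of -0.47, and -0.22 (2 higher, 14 lower) without dKO array 2, -0.64 (1 higher, 32 lower) without dKO array 3 and -0.48 (0 higher, 1 lower) without replicate 4 of every group. Albumin (Alb) was not called (-0.41 ± 0.15, adjusted p = 0.0501). F11, coagulation factor XI, was at 3.78, 4.43, 4.44 and 4.15 on the wild-type arrays and 0.54, -0.35, 1.92 and 0.76 on dKO arrays 1 to 4, well below wild type on every dKO array (-3.48 ± 0.3, adjusted p = 1.67e-07). Apoc2 was the member that rose (1.13 ± 0.24, adjusted p = 0.00168). Alb (-0.49, adjusted p = 0.0223) was called without dKO array 3. Cps1 and Apoc2 were not called without replicate 4 of every group.

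Of 29 genes of bile acid synthesis and transport 15 fell and none rose, with a median of -0.85, and -0.54 (0 higher, 13 lower) without dKO array 2, -1.16 (1 higher, 18 lower) without dKO array 3 and -0.83 (0 higher, 9 lower) without replicate 4 of every group. Slco1a1, an uptake transporter that is male-biased, was at 0.85, 2.73, 1.34 and 2.09 on the wild-type arrays and -4.65, -6.02, -6.5 and -5.66 on dKO arrays 1 to 4 (well above background on 2 of 4 dKO arrays) and fell by 7.46 ± 0.96 (adjusted p = 1.62e-05). Abcb11, the export pump for bile salts, fell by 1.13 ± 0.22 (adjusted p = 0.000953), and Cyp27a1, which starts the acidic route of synthesis, by 2.19 ± 0.31 (adjusted p = 4.48e-05). Cyp7a1, the rate-limiting enzyme, was at 3.19, 3.84, 3.12 and 3.5 on the wild-type arrays and 2.78, -1.65, 4.75 and 3.21 on dKO arrays 1 to 4. It was not called (-1.14 ± 0.81, adjusted p = 0.314) and was at 0.17 without dKO array 2 and -1.97 without dKO array 3 (adjusted p = 0.0447, called).

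Transcription factors of hepatocytes were mostly not called, 3 of 22 higher, 7 lower and a median of -0.36, and -0.17 (2 higher, 4 lower) without dKO array 2, -0.52 (2 higher, 12 lower) without dKO array 3 and -0.34 (0 higher, 0 lower) without replicate 4 of every group. Klf15 (-1.37 ± 0.44), the bile acid receptor Nr1h4 (-0.85 ± 0.25), Nr5a2 (-0.91 ± 0.28) and Nr0b2 (-0.88 ± 0.26) fell. Hnf4a (-0.34 ± 0.17, adjusted p = 0.127) and Cebpa (-0.24 ± 0.22, adjusted p = 0.439) were not called. No member of this list was called in all 4 fits and without replicate 4. Hnf4a (-0.49, adjusted p = 0.0215) was called without dKO array 3. Nr1h4, Nr5a2 and Nr0b2 were not called without dKO array 2, nor Klf15, Nr1h4, Nr5a2 and Nr0b2 without replicate 4 of every group.

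Genes with a sex bias in liver were more often lower than higher. Of 23 female-biased genes tested (26 listed) none rose and 12 fell, with a median of -1.45, and -0.79 (0 higher, 9 lower) without dKO array 2, -1.67 (0 higher, 15 lower) without dKO array 3 and -1.45 (0 higher, 3 lower) without replicate 4 of every group. Hao2, a hydroxyacid oxidase, was at 3.67, 3.29, 1.43 and 3.22 on the wild-type arrays and -0.36, -2.45, 1.3 and -0.068 on dKO arrays 1 to 4 and fell by 3.3 ± 0.61 (adjusted p = 0.000577). A1bg (-4.63 ± 1.07) fell as well, while Cyp17a1 (0.043 ± 0.62), Cyp3a41a (-1.06 ± 0.47) and Sult3a1 (-2.18 ± 1.85) were not called. Male-biased genes counted 2 higher and 6 lower of 19 (22 listed), with a median of -0.7, and -0.28 (2 higher, 6 lower) without dKO array 2, -0.92 (2 higher, 9 lower) without dKO array 3 and -0.58 (0 higher, 5 lower) without replicate 4 of every group. Cyp4a12a, an arachidonate hydroxylase, rose by 2.37 ± 0.71 (adjusted p = 0.0166) and Nat8 by 2.62 ± 0.59. Cyp3a41a (-1.52, adjusted p = 0.0102) was called without dKO array 3. Cyp4a12a was not called without dKO array 2, nor A1bg, Cyp4a12a and Nat8 without replicate 4 of every group.

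Among hormone receptors and the growth hormone axis 1 of 19 rose and 5 fell, with a median of -0.28, and -0.2 (2 higher, 4 lower) without dKO array 2, -0.44 (1 higher, 8 lower) without dKO array 3 and -0.3 (1 higher, 1 lower) without replicate 4 of every group. Esr1, the estrogen receptor, was at 0.67, 0.73, 0.48 and 0.42 on the wild-type arrays and 0.46, -0.69, 1.09 and 0.34 on dKO arrays 1 to 4 and was not called (-0.28 ± 0.24, adjusted p = 0.406). The difference was 0.05 without dKO array 2 and -0.54 without dKO array 3 (adjusted p = 0.0478, called). The growth hormone receptor Ghr (-1.4 ± 0.23), its effector Igfals (-1.27 ± 0.27) and the prolactin receptor Prlr (-1.45 ± 0.33) fell, and Igf1 (-0.22 ± 0.19) was not called. Igf1 (-0.44, adjusted p = 0.0356) was called without dKO array 3. Igfals and Prlr were not called without replicate 4 of every group.

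**Figure D5:**
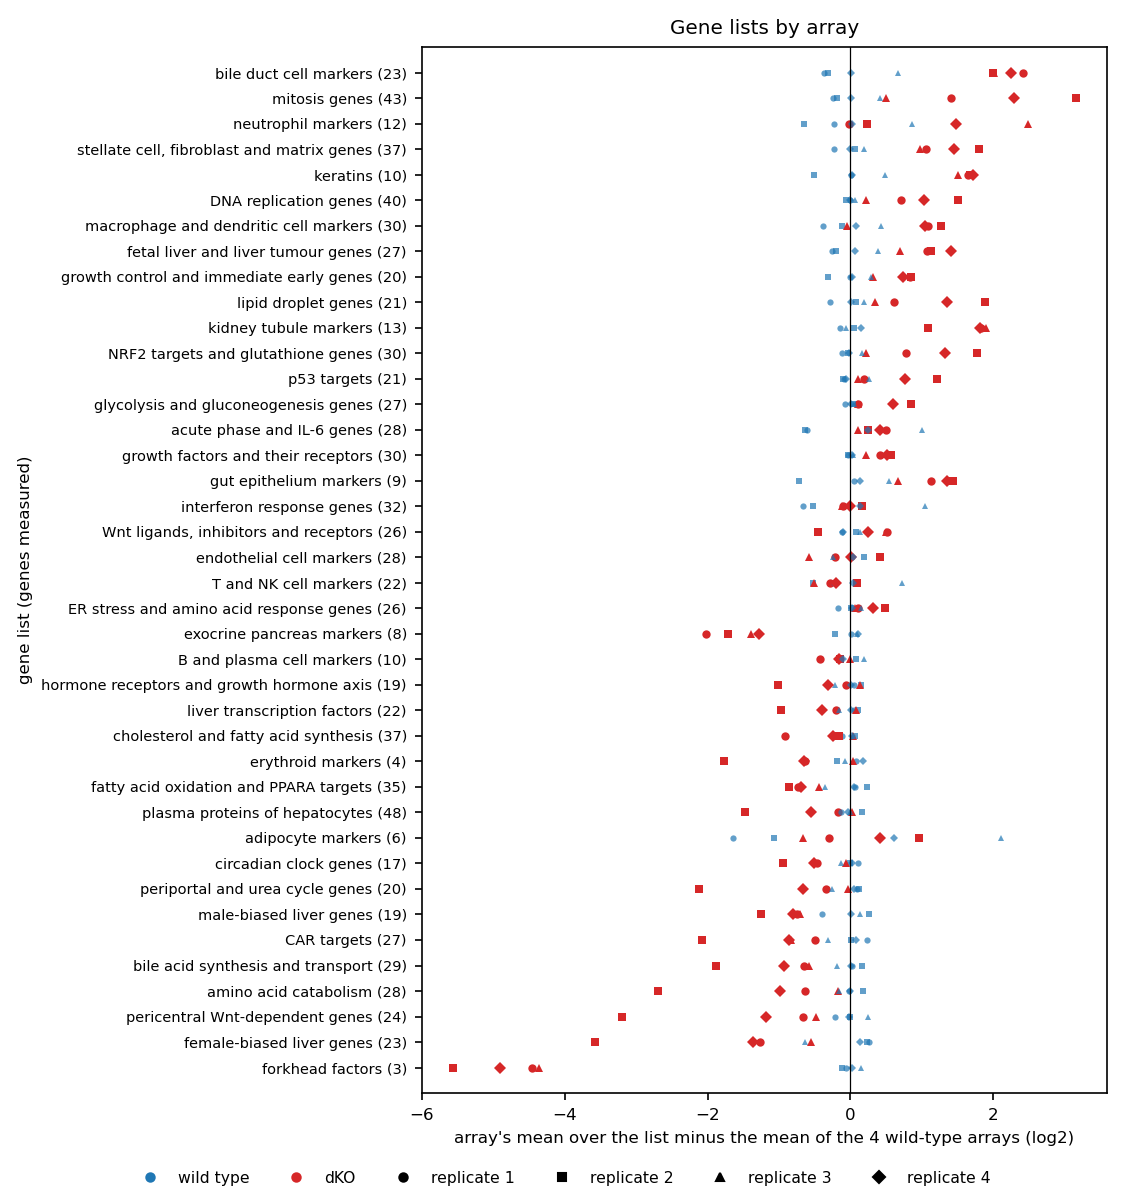
For each gene list (y axis, number of genes tested in brackets), the mean over its genes on each array minus the mean of the 4 wild-type arrays (x axis, log2 units), with a symbol for each replicate (blue wild type, red dKO). Of the 18 lists with a median above 0, dKO array 2 is furthest from wild type in 12 and dKO array 3 nearest in 15, and of the 22 with a median below 0 dKO array 2 is furthest in 15 and dKO array 3 nearest in 15.

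Lipid droplet genes rose more often than they fell, and genes of lipid synthesis the reverse. Of 21 lipid droplet genes 11 rose and 2 fell, with a median of 0.52, and 0.39 (7 higher, 2 lower) without dKO array 2, 0.84 (11 higher, 2 lower) without dKO array 3 and 0.49 (3 higher, 0 lower) without replicate 4 of every group. Cidec, a droplet-fusing protein like Cidea, was at -0.46, 0.18, 0.56 and 0.11 on the wild-type arrays and 2.67, 6.03, 1.98 and 4.91 on dKO arrays 1 to 4 (3.8 ± 0.65, adjusted p = 0.000274), Mogat1, a triglyceride enzyme, rose by 3.37 ± 0.79 and Plin2, the coat protein of hepatocyte droplets, by 0.96 ± 0.29 (adjusted p = 0.0186). Cidec lay above the wild types on all dKO arrays, most on arrays 2 and 4. In cholesterol and fatty acid synthesis 12 of 37 fell and 1 rose, which was Scd2, with a median of -0.42, and -0.4 (1 higher, 9 lower) without dKO array 2, -0.59 (1 higher, 17 lower) without dKO array 3 and -0.41 (1 higher, 3 lower) without replicate 4 of every group. Srebf1, the regulator of fatty acid synthesis, was at 6.42, 6.61, 6.08 and 6.31 on the wild-type arrays and 4.82, 4.72, 5.83 and 4.99 on dKO arrays 1 to 4 (-1.27 ± 0.23, adjusted p = 0.000469), Thrsp, a lipogenic protein, fell by 1.71 ± 0.33 and Insig1 by 1.2 ± 0.17 (largest adjusted p 0.000871). Fasn, the fatty acid synthase (-0.1 ± 0.3), was not called. Plin2 was not called without dKO array 2, nor Mogat1 and Plin2 without replicate 4 of every group.

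Of 27 glycolysis and gluconeogenesis genes 8 rose and 2 fell, with a median of 0.25, and 0.14 (5 higher, 3 lower) without dKO array 2, 0.3 (10 higher, 4 lower) without dKO array 3 and 0.22 (0 higher, 0 lower) without replicate 4 of every group. Pkm, the pyruvate kinase of muscle and tumours, was at -1.1, -1.03, 0.15 and -0.53 on the wild-type arrays and 0.59, 3.49, 0.24 and 2.58 on dKO arrays 1 to 4 (2.35 ± 0.49, adjusted p = 0.00148), and Hk2, the inducible hexokinase, at 0.0026, -0.26, 0.67 and 0.2 on the wild-type arrays and 1.52, 4.45, 0.69 and 3.37 on dKO arrays 1 to 4 (2.35 ± 0.53, adjusted p = 0.00271). dKO array 2 was the highest and dKO array 3 the lowest of the dKO arrays for both. Neither remained called without replicate 4 of every group (adjusted p = 0.0585 and 0.0805). The liver enzymes Pklr (0.16 ± 0.38) and Fbp1 (-0.3 ± 0.13) were not called. Fbp1 (-0.42, adjusted p = 0.0123) was called without dKO array 3.

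Several antioxidant genes controlled by NRF2 were highest on dKO arrays 2 and 4. Slc7a11, the cystine importer, was at -7.39, -7.41, -5.99 and -6.83 on the wild-type arrays and -4.11, 3.2, -3.3 and 1.93 on dKO arrays 1 to 4 (well above background on 1 of 4 wild-type arrays) and rose by 6.33 ± 1.1 (adjusted p = 0.000318). Srxn1, sulfiredoxin, was at 2.92, 3.25, 3.86 and 3.39 on the wild-type arrays and 4.28, 7.13, 3.66 and 6.16 on dKO arrays 1 to 4 (1.95 ± 0.48, adjusted p = 0.00521), and Nqo1, a quinone reductase, at 0.98, 0.98, 1.65 and 1.15 on the wild-type arrays and 2.28, 4.63, 1.59 and 3.75 on dKO arrays 1 to 4 (1.87 ± 0.43, adjusted p = 0.00327). In these genes dKO arrays 1 and 3 lay nearer to the wild types. Hmox1 (-0.07 ± 0.32) and Gclm (0.087 ± 0.16), further NRF2 targets, were not called. The list counted 11 higher and 2 lower of 30, with a median of 0.44, and 0.18 (9 higher, 3 lower) without dKO array 2, 0.62 (16 higher, 1 lower) without dKO array 3 and 0.41 (5 higher, 0 lower) without replicate 4 of every group. Srxn1 and Nqo1 were not called without replicate 4 of every group.

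Targets of p53, which responds to DNA damage, counted 7 higher and 1 lower of 21, with a median of 0.33, and 0.13 (4 higher, 0 lower) without dKO array 2, 0.59 (11 higher, 1 lower) without dKO array 3 and 0.36 (2 higher, 0 lower) without replicate 4 of every group. Cdkn1a, the p53-induced inhibitor p21, was at -3.31, -4.15, -2.31 and -3.28 on the wild-type arrays and -2.7, 1.2, -2.72 and -0.0028 on dKO arrays 1 to 4 (2.21 ± 0.66, adjusted p = 0.017), so that dKO arrays 2 and 4 stood above. Without dKO array 2 its adjusted p was 0.0807. Mdm2 (-0.002 ± 0.1) and Bax (0.47 ± 0.17), other p53 targets, had small differences, of which that of Bax was called (adjusted p = 0.0453). Bax was not called without dKO array 2, nor Cdkn1a and Bax without replicate 4 of every group.

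In the list of ER stress and amino acid response genes members moved both ways. Of 26 tested 6 rose and 10 fell, with a median of -0.11, and -0.14 (2 higher, 8 lower) without dKO array 2, -0.037 (6 higher, 10 lower) without dKO array 3 and -0.12 (1 higher, 3 lower) without replicate 4 of every group. The median turned to 0.028 with quantile normalization and 0.0018 with normexp background. Those that rose included the serine and asparagine enzymes Psat1 (3.37 ± 0.65), Asns (2.44 ± 0.68) and Phgdh (1.94 ± 0.41), and those that fell the ER chaperones Hyou1 (-0.52 ± 0.1), Pdia4 (-0.61 ± 0.17) and Hspa5 (-0.33 ± 0.11, adjusted p = 0.0289). Psat1 was at -4.49, -4.24, -2.91 and -3.83 on the wild-type arrays and -1.66, 1.68, -2.52 and 0.53 on dKO arrays 1 to 4, above wild type on all dKO arrays. Asns and Hspa5 were not called without dKO array 2, nor Asns, Phgdh, Pdia4 and Hspa5 without replicate 4 of every group.

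Genes of fetal liver and liver tumours counted 12 higher and 1 lower of 27 (30 listed), with a median of 0.72, and 0.49 (10 higher, 0 lower) without dKO array 2, 0.66 (14 higher, 1 lower) without dKO array 3 and 0.7 (6 higher, 0 lower) without replicate 4 of every group. H19, the imprinted RNA next to Igf2, was at -2.45, -3.66, -0.65 and -1.88 on the wild-type arrays and 3.7, -0.31, 0.95 and 2.07 on dKO arrays 1 to 4 and rose by 3.76 ± 0.85 (adjusted p = 0.00282), highest on dKO array 1 as Igf2 was. Sox4, a fetal transcription factor, was at -3.41, -2.51, -2.33 and -2.87 on the wild-type arrays and 1.1, 1.22, -0.023 and 0.78 on dKO arrays 1 to 4 (3.55 ± 0.29, adjusted p = 8.29e-08), and the groups of both genes stood apart. Igf2bp3, a fetal RNA-binding protein, was at -5.52, -1.66, -6.41 and -2.9 on the dKO arrays (2.82 ± 0.79, adjusted p = 0.0111, well above background on 1 of 4 wild-type arrays). Afp, alpha-fetoprotein, was at -0.41, -0.6, -0.21 and -0.45 on the wild-type arrays and -1.11, 2.21, -1.0 and 1.14 on dKO arrays 1 to 4. dKO arrays 2 and 4 were above and 1 and 3 below the wild types, and it was not called (0.72 ± 0.52, adjusted p = 0.319). Gpc3 (-0.54 ± 0.48) and Dlk1 (-0.38 ± 0.43), other markers of liver tumours, were not called either. Igf2bp3 was not called without dKO array 2, nor H19 and Igf2bp3 without replicate 4 of every group.

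Among macrophage and dendritic cell markers 13 of 30 rose and 1 fell, beside 13.5% and 16.5% of all genes, with a median of 0.9, and 0.7 (6 higher, 1 lower) without dKO array 2, 1.09 (15 higher, 1 lower) without dKO array 3 and 0.87 (1 higher, 1 lower) without replicate 4 of every group. The list's mean level was 1.08, 1.27, -0.041 and 1.05 on dKO arrays 1 to 4 and -0.39, -0.12, 0.42 and 0.084 in wild types, so that dKO array 3 lay near the wild types. Trem2, a receptor of lipid-laden macrophages, was at -3.98, -0.59, -0.45 and -1.32 on the wild-type arrays and 2.43, 2.15, 0.83 and 1.79 on dKO arrays 1 to 4 (3.38 ± 0.76, adjusted p = 0.00272), and Gpnmb and Cx3cr1 rose by 3.6 ± 0.9 and 3.76 ± 0.69. The defining genes of resident Kupffer cells Clec4f (-0.5 ± 0.39) and Timd4 (-0.76 ± 0.29) were not called, and Cd163, a scavenger receptor, fell by 2.7 ± 0.54 (adjusted p = 0.00104). The summed linear level was 247 to 406 on wild-type arrays and 274 to 617 on dKO arrays. Trem2 and Gpnmb were not called without replicate 4 of every group.

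Endothelial markers counted 2 higher and 8 lower of 28, beside 13.5% and 16.5% of all genes, with a median of -0.02, and -0.25 (1 higher, 8 lower) without dKO array 2, 0.17 (6 higher, 7 lower) without dKO array 3 and -0.028 (1 higher, 1 lower) without replicate 4 of every group. It was 0.11 with quantile normalization. Cd34 rose (1.98 ± 0.25), and the sinusoid genes Clec4g (-1.28 ± 0.27), Ehd3 (-1.16 ± 0.25) and Oit3 (-1.03 ± 0.22) fell. For T and NK cells none of 22 tested (25 listed) rose and 2 fell, with a median of -0.059, and -0.2 (0 higher, 2 lower) without dKO array 2, -0.0082 (0 higher, 1 lower) without dKO array 3 and -0.088 (0 higher, 1 lower) without replicate 4 of every group. For B and plasma cells none of 10 (14 listed) rose and 2 fell, with a median of -0.23, and -0.24 (0 higher, 1 lower) without dKO array 2, -0.32 (1 higher, 2 lower) without dKO array 3 and -0.38 (0 higher, 0 lower) without replicate 4 of every group. For red cells none of 4 (10 listed) rose and 1 fell, with a median of -0.44, and -0.28 (0 higher, 1 lower) without dKO array 2, -0.6 (0 higher, 1 lower) without dKO array 3 and -0.51 (0 higher, 0 lower) without replicate 4 of every group. Of 12 neutrophil markers 2 rose and 1 fell, with a median of 1.46, and 1.86 (2 higher, 0 lower) without dKO array 2, 0.81 (1 higher, 1 lower) without dKO array 3 and 1.18 (1 higher, 0 lower) without replicate 4 of every group. Ltf, lactoferrin, was at -4.68, -3.51, -0.015 and -1.67 on dKO arrays 1 to 4, highest on array 3, whereas S100a8 fell (-3.25 ± 1.12). Summed linear levels were 72.2 to 107 on wild-type arrays and 61.2 to 106 on dKO arrays for endothelial, 11.1 to 34.3 on wild-type arrays and 12 to 18.4 on dKO arrays for T and NK, 8.38 to 13.1 on wild-type arrays and 5.2 to 8.04 on dKO arrays for B and plasma, 5.29 to 21 on wild-type arrays and 6.62 to 33 on dKO arrays for neutrophil and 2.81 to 3.81 on wild-type arrays and 1.41 to 2.04 on dKO arrays for red cell markers. No gene tested in these 5 lists was below background on all 8 arrays. The part of these cells in the differences above was not tested. S100a8 was not called without dKO array 2, nor Clec4g, Ehd3, Oit3 and S100a8 without replicate 4 of every group.

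Fat and pancreas genes held a few large changes. Pnliprp1, a pancreatic lipase relative, was at 5.02, 2.92, 4.46 and 4.39 on the wild-type arrays and -4.42, -6.75, -4.03 and -5.08 on dKO arrays 1 to 4 (well above background on 3 of 4 dKO arrays) and fell by 9.27 ± 0.67 (adjusted p = 2.68e-08), while Ctrb1 (-0.078 ± 0.38) and Cel (0.53 ± 0.59), other enzymes of the exocrine pancreas, were not called. Of 8 pancreas markers tested (13 listed) 1 rose and 3 fell, with a median of -0.13, and -0.044 (1 higher, 3 lower) without dKO array 2, -0.3 (1 higher, 3 lower) without dKO array 3 and -0.21 (1 higher, 3 lower) without replicate 4 of every group. The member that rose was Cela1 (3.55 ± 0.69, well above background on 3 of 4 wild-type arrays). Summed linear levels of the pancreas markers were 8.2 to 33.3 on wild-type arrays and 0.592 to 2.56 on dKO arrays. That sum holds Pnliprp1, whose fall is given above, and weighs bright genes most. Of 6 adipocyte markers tested (8 listed) 2 rose and 1 fell, with a median of -0.54, and -0.64 (2 higher, 1 lower) without dKO array 2, -0.3 (2 higher, 1 lower) without dKO array 3 and -0.45 (1 higher, 0 lower) without replicate 4 of every group. The median of adipocyte markers was 0.17 without wild-type array 3, and summed levels were 5 to 11.6 on wild-type arrays and 13.5 to 173 on dKO arrays. Beside Cidea, Fabp4, the fatty acid binding protein of fat and macrophages, rose (2.57 ± 0.58), Cfd, adipsin, fell (-4.87 ± 1.42, well above background on 1 of 4 dKO arrays), and Adipoq, the defining hormone of fat, was well above background on 3 of 4 wild-type arrays and no dKO array and was not called (adjusted p = 0.0824). The summed level of the adipocyte markers holds Cidea. Fabp4 and Cfd were not called without replicate 4 of every group.

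Interferon response genes counted 4 higher and 3 lower of 32, with a median of 0.049, and 0.0048 (2 higher, 1 lower) without dKO array 2, 0.075 (5 higher, 4 lower) without dKO array 3 and 0.11 (0 higher, 1 lower) without replicate 4 of every group. The median of interferon response genes was -0.0046 with median centring, and -0.18 and -0.13 without wild-type array 1 or 2. Acute phase genes counted 6 higher and 3 lower of 28, with a median of 0.25, and 0.28 (6 higher, 2 lower) without dKO array 2, 0.19 (7 higher, 3 lower) without dKO array 3 and 0.27 (1 higher, 0 lower) without replicate 4 of every group. Lcn2, lipocalin-2, was at -0.44, 0.076, 4.16 and 2.45 on the wild-type arrays and 4.89, 5.75, 3.87 and 5.19 on dKO arrays 1 to 4 and rose by 3.36 ± 0.97 (adjusted p = 0.0135), while Hamp, hepcidin, fell by 2.18 ± 0.63 (adjusted p = 0.0131). Il6, the cytokine, was well above background on 2 of 4 wild-type arrays and was not called (-0.19 ± 0.41, adjusted p = 0.768). Circadian clock genes had 8 of 17 lower and none higher, with a median of -0.61, and -0.33 (0 higher, 6 lower) without dKO array 2, -0.72 (1 higher, 10 lower) without dKO array 3 and -0.56 (0 higher, 0 lower) without replicate 4 of every group, and Per3 (-1.78 ± 0.43) and Dbp (-0.82 ± 0.27) were among those that fell. The hour of sampling is not among the labels. Dbp was not called without dKO array 2, nor Lcn2, Hamp, Per3 and Dbp without replicate 4 of every group.

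The widest spans among the 4 dKO arrays were mostly set by dKO array 2. Gm4779 was at -3.79, -4.53, -4.73 and -4.06 on the wild-type arrays and -4.19, 9.52, -4.15 and -5.21 on dKO arrays 1 to 4, so that dKO array 2 alone was high, and the difference was not called (3.27 ± 2.01, adjusted p = 0.237). Upp2, a uridine phosphorylase of liver, was at 2.34, -3.29, 3.39 and 1.97 on dKO arrays 1 to 4 against a wild-type mean of 4.27. Cyp2d13 was at 0.84, -3.63, 2.61 and 0.99 against 3.14, Mup9, a major urinary protein, at 2.22, -2.26, 4.0 and 2.43 against 3.62, and Hamp2 at 6.48, 1.31, 7.99 and 6.62 against 6.87. In these 4 genes dKO array 2 was the lowest and dKO array 3 the highest of the dKO arrays. Upp2 (-3.17 ± 0.87) and Cyp2d13 (-2.94 ± 0.77) were called with all arrays, and Mup9 and Hamp2 were not. Mup9 was called lower without dKO array 3 (-2.82, adjusted p = 0.00413) and without dKO arrays 2 and 3 (-1.29, adjusted p = 0.00417). Neither Upp2 nor Cyp2d13 was called without replicate 4 of every group (adjusted p = 0.0835 and 0.0734).

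Whether the genotype difference of treated females departed from that of treated males was tested as an interaction, in which no array is shared. It was called for 2405 genes (12.6%), with a more positive difference in females for 1005 (5.25%) and a more negative one for 1400 (7.31%), or 1002 and 701 with median centring. The number was 4450 without dKO array 3 and 1485 without dKO array 4. Without replicate 4 of every group limma called 0 genes, with 2853 (14.9%) at an unadjusted p under 0.05, and with limma's trend and robust options also 0 (2933 unadjusted). Mitosis genes took 41 of the more positive calls, the list's median being 1.89 in females and -1.57 in males. Cdkn3, a phosphatase of the cell cycle, differed by 2.17 ± 0.53 in females and -3.07 in males (interaction 5.24 ± 0.76, adjusted p = 0.000708). For Sult2a7 the values were -6.02 ± 0.97 and 1.65 (interaction -7.67 ± 1.38, adjusted p = 0.00191). For Cyp4a14 they were -5.74 ± 0.57 and -5.93, and the interaction of 0.19 ± 0.81 was not called (adjusted p = 0.908).

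The same test against untreated females, which also shares no array, called 987 genes (5.15%), 472 more positive with treatment (2.46%) and 515 more negative (2.69%). The number was 2418 without dKO array 3, 463 without dKO array 4, and between 554 and 629 without wild-type array 1 or 4 of either treatment or untreated dKO array 4. Without replicate 4 of every group 7 were called (0.0366%), with 1996 (10.4%) at an unadjusted p under 0.05. Sult1e1, the estrogen sulfotransferase, was at 6.43, 5.91, 6.11 and 6.11 on the wild-type arrays and 6.59, 2.19, 7.1 and 6.02 on dKO arrays 1 to 4 in treated females and was not called there (-0.67 ± 0.68, adjusted p = 0.494), beside 7.91 ± 0.68 in untreated females. Its interaction was -8.58 ± 0.95 (adjusted p = 7.34e-05, and 0.0233 without replicate 4 of every group). Igf2 differed by 4.42 ± 0.71 with treatment and 0.29 without (interaction 4.13 ± 1.0, adjusted p = 0.0225). Of the mitosis genes 10 had a more positive difference with treatment, and the list's median without treatment was -0.013. Bile duct markers had a median of 1.56 without and 2.21 with treatment, and 4 of 23 differed by this test.

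Each of 2 slides held 1 dKO and 1 wild-type array of these groups, dKO array 2 with wild-type array 3 and dKO array 4 with wild-type array 1. For the mitosis genes the median difference was 2.92 on the former slide, 2.61 on the latter and 1.97 with slide as a fixed block. The same 3 values were 1.49, 1.48 and 1.23 for matrix genes, 1.01, 2.95 and 2.31 for bile duct markers, and -2.16, -1.01 and -1.05 for amino acid catabolism. For CAR targets they were -1.17, -0.86 and -0.89, for pericentral genes -3.25, -0.76 and -1.27, and for bile acid genes -1.69, -0.85 and -0.99. Over all 40 lists the median had 1 sign on both slides in 34, and in the endothelial markers that sign (0.67 and 0.074) was not that of all arrays. It turned between the slides for interferon response (-0.87 and 0.48), acute phase (-0.76 and 0.92), T and NK cell (-0.42 and 0.094), neutrophil (-0.25 and 2.42), adipocyte (-2.39 and 1.32) and kidney tubule genes (-0.28 and 0.11). The fold changes of 19131 matched genes in the authors' deposited table, put on a common scale with these differences, correlated with them (Pearson r = 0.987, across genes). Of the 5731 called genes 99.8% had the same sign. The authors' deposited table lists 4841 of the matched genes at a false discovery rate under 5%, of which 4053 were called here (83.7% of those, and 70.7% of the called genes).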

How the data were processed

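RNA of 24 mouse liver samples had been amplified, labelled with Cy3 and hybridised to 1-colour Agilent arrays. The deposited scanner files give spot intensities, background-subtracted and detrended by the authors in Agilent Feature Extraction (10.5.1.1 per the file headers, 9.53 per the submitters' processing notes). Controls were left out, and of the other 43379 spots those with outlier flags were left out. Of 41174 probes 28051, well above background on at least 4 arrays, were kept. The gene took its probe of highest mean over the arrays, giving 19149 features, 15204 with a symbol from RefSeq or the files. The deposited intensities were turned into log2 values minus each array's 75th percentile. The authors' deposited values of signed fold change (a score with no value between -1 and 1) and false discovery rate, with no method stated, were used for comparison only, with repeat spots of a probe averaged on the log2 scale.

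Differences were tested with limma 3.58.1 (lmFit, eBayes; R 4.3.3, data.table package 1.17.8) on 6 group means with Benjamini-Hochberg adjustment at 0.05, after tests on simulated data. Figures and flags used Python 3.11.15, pandas 2.3.3 and matplotlib 3.10.9. Summed levels are sums of 2 to the power of the log2 value. Alternatives were a fit of the groups compared alone, array weights, trend and robust variances, normexp (offset 50), filters, probe averaging, replicate block, slide, position, centring, quantile normalization and leaving out arrays; replicate 4 was left out after the data were seen.

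The arrays compared and the 40 gene lists were chosen with earlier results of these data known. Some lists share members, so their counts and medians are not independent. Cyp1a2, for example, is among both the CAR targets and the pericentral genes, and Cyp27a1 among both the pericentral and the bile acid genes. Genes named are (a) the 12 highest and 12 lowest among genes called with and without dKO arrays 2 and 3, with groups apart and above background on all 8 arrays; (b) the 6 largest bounds each way; (c) up to 4 called members of each list, with members named for their role; (d) Foxa1, Foxa2, Foxa3, Esr1, Nr1i3, Cyp2b10, Myc, Ccnd1, Afp, Igf2, Il6 and Xist; (e) the 6 highest and 6 lowest of each interaction; (f) the 8 widest spans among dKO arrays. Some genes that this rule selects are not reported here.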

Additional observations from a re-analysis of the deposited data

Results flagged for a closer look

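In 220 groups of 4 values, 9 held 1 array set apart from the other 3 by a gap that took up nearly all of the group's range. Chance alone marks about 1 in 20 groups of independent values. Many of the genes examined were chosen from these same values, such as Gm4779 for its wide span, so that rate is no reference for the 9. Among the dKO arrays these were array 2 for Gm4779 (9.52, others -5.21 to -4.15), array 3 for Il6 (-5.39, others -4.67 to -4.56), array 3 for the mean of the macrophage and dendritic cell markers (-0.041, others 1.05 to 1.27) and array 2 for the mean of the kidney tubule markers (1.09, others 1.82 to 1.89). Among the wild-type arrays array 3 was low for Sult2a2 (6.15, others 7.75 to 7.99), Sult2a4 (2.16, others 4.55 to 5.0) and the mean of the female-biased liver genes (-0.63, others 0.14 to 0.26), and high for the mean of the p53 targets (0.26, others -0.10 to -0.07). Wild-type array 4 was high for Dnase1 (-6.84, others -7.41 to -7.40), a gene not well above background on any wild-type array.

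The genotype difference departed between treated females and treated males for 2405 genes and between treated and untreated females for 987, by limma's interaction tests. Among genes above background on all arrays of the groups, the difference of treated females was more positive than that of treated males for Ly6d (7.03), Sdcbp2 (6.83), Mgst2 (6.72), Cbr3 (6.16), Fgf21 (5.84) and Cdkn3 (5.24). It was more negative for Sult2a7 (-7.67), Sult2a2 (-5.13), Sult2a4 (-5.05), Serpina4-ps1 (-4.70), Hamp2 (-4.38) and Clec2h (-4.32). Against untreated females it was more positive for Fgf21 (6.71), Serpina7 (6.44), Rad51b (4.83), Mgst2 (4.68), Cgref1 (4.27) and Igf2 (4.13). It was more negative for Sult1e1 (-8.58), Sult2a7 (-7.84), Gbp2b (-4.72), Cyp4a12a (-4.20), Slc1a2 (-3.71) and Ntrk2 (-3.53). Without replicate 4 of every group none of these sex interactions was called (smallest adjusted p over all genes 0.0824), and of the treatment interactions that of Sult1e1 was (adjusted p = 0.0233).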

How the results depend on the processing

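The 5731 genes called between dKO and wild type became 9889 with array weights, 2091 with the 8 arrays alone and 22 with slide position as a factor. They became 1531 without replicate 4 of every group, 869 without dKO array 2 in addition and 3559 without dKO array 3 in addition. Leaving out 1 array gave 3948 to 7256, and the other settings 4627 to 7074. Of the 1531 genes 1520 were among the 5731, and of the 2091 genes 2009. Of the 7074 called with normexp background 3666 (51.8%) were among the 5731 in the same direction, 64% of the 5731.

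The 2405 sex interactions became 1408 with the groups compared alone, 8542 with array weights, 1308 with normexp background, 1570 with no filter, 705 with position as a factor and 0 without replicate 4. Leaving out 1 array gave 1485 to 4450. The 987 treatment interactions became 480, 5679, 408, 562, 4 and 7 under the same settings, 1487 with slide as a fixed block, and 463 to 2418 with 1 array left out. The cause of these changes was not tested.

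Replicate numbers did not pair the samples (correlations of deviations between the groups' same-numbered arrays -0.25 to -0.05), and with a replicate block 5349 genes, 2098 sex interactions and 747 treatment interactions were called.

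Directions turned as follows, with differences in log2. Array weights gave -0.30 for Gm4779 and 0.054 for Il6, and normexp -0.61 for Cdkn2a. Averaging probes gave 0.59 for Serpina4-ps1, and slide as a fixed block 0.039 for Serpina4-ps1 and 0.038 for Xist. Position as a factor gave -0.071 for Foxa3, -0.16 for H2-Eb1 and -1.32 for Ntrk2. Without wild-type array 1 Ntrk2 was at -0.24, without wild-type array 3 Il6 at 0.15, without dKO array 1 Ntrk2 at -0.18, and without dKO array 3 Il6 at 0.0024 and Ntrk2 at -0.10. Without dKO array 2 the values were 0.17 for Cyp7a1, 0.050 for Esr1, -0.24 for Gm4779, 0.16 for Hamp2, 0.43 for Sult1e1, 0.10 for Sult2a2 and 0.30 for Sult2a4, and without dKO arrays 2 and 3 -0.42 for Gm4779 and 0.16 for Sult1e1. Without replicate 4 and dKO array 2 they were -0.65 for Afp, 0.38 for Cyp7a1, 0.14 for Esr1, 0.43 for Hamp2, 0.22 for Nr1i3, -0.052 for Pgd, 0.69 for Sult1e1, 0.37 for Sult2a2 and 0.58 for Sult2a4, and without replicate 4 and dKO array 3 -0.28 for Ntrk2. With 1 array left out at a time these genes spanned -1.97 to 0.17 (Cyp7a1), -0.54 to 0.05 (Esr1), -0.24 to 4.67 (Gm4779), -2.07 to 0.16 (Hamp2), -0.46 to 0.15 (Il6), -0.24 to 0.83 (Ntrk2), -1.21 to 0.43 (Sult1e1), -1.44 to 0.097 (Sult2a2) and -1.28 to 0.3 (Sult2a4).

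Of 188 named genes 172 were called, and 164 of these lost the call with position as a factor, 77 without replicate 4, 69 with the 8 arrays alone, 20 without dKO array 2 and 4 without dKO array 3. Genotype was tied to slide position, and dim probes are known only by a bound.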
